A study of Homo sapiens with 12 samples.

Results

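Polycomb-marked chromatin of KBM-7 cells held 3809 H3K4me2 regions without H3K4me3 or H3K4me1, 7.60% of the 50132 H3K4me2 regions in the line. KBM-7 is a near-haploid human line established from chronic myeloid leukaemia. The regions were chosen by the marks themselves: called intervals of a mark that overlapped or touched were joined, and an H3K4me2 region was taken when it shared at least 1 bp with H3K27me3 and no base with H3K4me3 or H3K4me1. They are called Polycomb H3K4me2 regions below, and together they covered 4118700 bp. The overlap with H3K27me3 and the absence of H3K4me3 and H3K4me1 are therefore part of the definition and not results.

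Chromatin immunoprecipitation with sequencing was done once for each of 9 histone marks, with 3 inputs, on KBM-7 cells throughout. The labels name no treatment, time or other genotype, and all groups share the line's BCR-ABL1 background. The deposited values are called intervals with no count or score, so the depth behind them is unknown and no difference can be set against replicate error. All shares below have Wilson 95% intervals that cover counting error only. By the labels, H3K4me2 shared an input with H3K4me1 and H3K27ac, while H3K4me3 and H3K9ac shared another and H3K27me3 had its own. The H3K36me3 and H4K16ac labels held identical intervals and are given as 1 set. The line's own identity was checked by H3K4me3 within 1 kb of gene starts: 7 of 8 myeloid or progenitor markers had it (KIT did not), against 0 of 13 markers of T cells, B cells, epithelium, hepatocytes and neurons.

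Polycomb repressive complexes keep developmental genes silent. PRC2 writes H3K27me3, and both PRC1 and PRC2 gather at CpG islands, the stretches where the dinucleotide CG has not been depleted by methylation and mutation. H3K4 methylation is written by the KMT2 and SETD1 enzymes, also at CpG islands: H3K4me3 peaks at starts of active genes, H3K4me1 spreads over enhancers, and H3K4me2 lies at both. Chromatin with H3K27me3 and H3K4me3 together is called bivalent and is best known from embryonic stem cells.

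Polycomb-marked promoters with and without such a region differed in CpG content, as given further on, so sequences of both kinds are shown first. Each is the 250 bases before the RefSeq start (GRCh38.p14), 5′ to 3′ in the direction of transcription, with every CG in capitals. The first 4 genes had their start inside a Polycomb H3K4me2 region. EBF3 (chr10:129964275-129964524, minus strand) encodes a transcription factor of neurons and muscle. POU3F2 (chr6:98834324-98834573, plus strand) encodes a neural transcription factor, HTR7 (chr10:90858040-90858289, minus strand) a serotonin receptor, and COL19A1 (chr6:69866306-69866555, plus strand) a collagen chain. KRT5 (chr12:52520395-52520644, minus strand), a keratin of basal epithelium, and PAX7 (chr1:18630596-18630845, plus strand), a transcription factor of muscle stem cells, had H3K27me3 at the start and no H3K4me2. The 250 bases hold 46 CG in EBF3, 22 in POU3F2, 41 in HTR7, 6 in COL19A1, 6 in KRT5 and 18 in PAX7. COL19A1 and PAX7 are shown because they go against the general pattern.
EBF3: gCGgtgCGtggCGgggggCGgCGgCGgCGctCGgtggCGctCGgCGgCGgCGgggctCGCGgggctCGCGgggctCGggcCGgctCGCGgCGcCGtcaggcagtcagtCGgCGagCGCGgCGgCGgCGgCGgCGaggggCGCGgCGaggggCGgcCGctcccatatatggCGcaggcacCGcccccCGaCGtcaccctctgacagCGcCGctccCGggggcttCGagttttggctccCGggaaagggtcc
POU3F2: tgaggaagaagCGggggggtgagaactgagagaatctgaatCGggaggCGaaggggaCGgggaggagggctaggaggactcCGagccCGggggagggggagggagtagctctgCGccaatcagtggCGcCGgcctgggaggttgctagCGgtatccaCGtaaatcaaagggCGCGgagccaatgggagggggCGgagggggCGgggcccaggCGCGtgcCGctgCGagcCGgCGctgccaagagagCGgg
HTR7: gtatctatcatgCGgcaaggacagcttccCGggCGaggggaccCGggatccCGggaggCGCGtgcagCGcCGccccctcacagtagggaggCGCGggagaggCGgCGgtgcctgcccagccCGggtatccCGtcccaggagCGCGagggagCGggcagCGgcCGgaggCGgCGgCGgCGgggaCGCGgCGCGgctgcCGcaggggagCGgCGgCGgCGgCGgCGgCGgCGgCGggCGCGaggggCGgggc
COL19A1: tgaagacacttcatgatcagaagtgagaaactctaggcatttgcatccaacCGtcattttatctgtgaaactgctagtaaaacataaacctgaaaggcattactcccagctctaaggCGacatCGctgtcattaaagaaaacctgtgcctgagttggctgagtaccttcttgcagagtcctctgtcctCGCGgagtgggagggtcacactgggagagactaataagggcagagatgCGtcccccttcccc
KRT5: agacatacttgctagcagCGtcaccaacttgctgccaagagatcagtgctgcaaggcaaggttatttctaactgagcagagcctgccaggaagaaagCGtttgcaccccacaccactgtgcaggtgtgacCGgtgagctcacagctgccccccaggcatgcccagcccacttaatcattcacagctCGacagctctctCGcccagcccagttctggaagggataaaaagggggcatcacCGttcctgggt
PAX7: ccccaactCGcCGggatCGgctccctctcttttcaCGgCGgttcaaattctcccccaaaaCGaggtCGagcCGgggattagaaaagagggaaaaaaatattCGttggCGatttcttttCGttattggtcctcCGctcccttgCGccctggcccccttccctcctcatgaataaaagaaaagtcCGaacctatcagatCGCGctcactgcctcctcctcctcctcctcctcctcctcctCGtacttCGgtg

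MicroRNA genes lay in these regions too. Of 1558 microRNA hairpins in RefSeq, 367 overlapped H3K27me3 and 15 (0.963%) overlapped a Polycomb H3K4me2 region, in 12 regions. Mature sequences are shown for 5 of them, with the seed (bases 2 to 8, which pair with target messages) in capitals. The hairpin of miR-137 (chr1:98046070-98046171, minus strand) and that of miR-9 named MIR9-2 (chr5:88666853-88666939, minus strand) give microRNAs of neurons. MIR132 (chr17:2049908-2050008, minus strand) and MIR212 (chr17:2050271-2050380, minus strand) are neighbours whose 3p products share the seed AACAGUC. MIR203A (chr14:104117405-104117514, plus strand) gives a microRNA of skin.
miR-137-3p: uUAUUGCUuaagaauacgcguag
miR-9-5p: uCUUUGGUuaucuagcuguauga
miR-132-3p: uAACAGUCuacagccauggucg
miR-212-3p: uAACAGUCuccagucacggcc
miR-203a-3p: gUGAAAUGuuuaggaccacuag
The MIR137 region (chr1:98045101-98046600, 1500 bp) also held MIR2682 and was wholly under H3K27me3, 1322 kb from the nearest H3K4me3. The MIR9-2 region (chr5:88666351-88667700, 1350 bp) lay in an H3K27me3 region of 45 kb with no protein-coding start within 1 kb. MIR132 and MIR212 shared a region of 3000 bp (chr17:2048701-2051700), of which 23.3% was under H3K27me3, with H3K4me3 3.60 kb away. MIR203A and MIR203B overlap on opposite strands and shared 1350 bp (chr14:104116201-104117550), within 1 kb of the start of ASPG, which encodes an asparaginase. None of the 12 regions with a hairpin overlapped H3K9ac, against 294 of all 3809 regions (7.72%). The 12 regions are too few to tell these shares apart. MIR615, inside the HOXC cluster, lay in a 1500 bp region (chr12:54032851-54034350) wholly under H3K27me3.

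Most Polycomb H3K4me2 regions were short islands inside longer stretches of H3K27me3. Their median width was 900 bp, with quartiles of 600 and 1350 bp and a range of 300 to 5850 bp, on a calling grid of 150 bp. H3K27me3 covered 2974 regions (78.1%) from end to end. A further 700 (18.4%) reached beyond H3K27me3 on 1 side, 133 (3.49%) had H3K27me3 at both ends and a gap in between, and 2 held it only inside. The edges of the H3K27me3 intervals lie on a grid of 500 bp and are known only to that step. In all, 88.9% of their bases were under H3K27me3, while they made up 0.4002% of H3K27me3 bases. The H3K27me3 calls were extensive, with 914 Mb in 117702 regions, and 6141 of the 50132 H3K4me2 regions overlapped them. How far enclosure follows from this extent was not tested. The 2974 enclosed regions showed no preference for an end of the H3K27me3 region: their midpoints had a median relative position of 49.8% (quartiles 28.6% and 71.5%), and the nearer end was a median of 4400 bp away.

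The label of H3K4me2 inside Polycomb domains holds for most regions but not all. At least 50% of the width was under H3K27me3 in 3453 regions (90.7%). Just inside the threshold lay 31 regions with 50 bp of H3K27me3. The region at CXCR4 was of this kind, with 50 of its 4350 bp. Just outside lay 47 H3K4me2 regions without H3K4me3 or H3K4me1 that touched an H3K27me3 region and shared no base with it. Another 41 H3K4me2 regions with H3K27me3 fell out over 150 bp or less of H3K4me3, and 57 over 150 bp or less of H3K4me1. Conversely, 43 Polycomb H3K4me2 regions touched H3K4me3 and 38 touched H3K4me1 without a shared base. Most stood far from both marks: H3K4me3 was a median of 109 kb away (quartiles 44.9 and 235 kb) and H3K4me1 62.9 kb.

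Acetylation and the marks of transcription were rare on these regions. H3K9ac, found at active starts, overlapped 294 of 3809 (7.72%, interval 6.91 to 8.61). H3K27ac, a mark of active promoters and enhancers, overlapped 1 region (0.0263%, 0.00463 to 0.149). H3K79me2, written early in transcribed genes, overlapped 16 (0.420%), and the H3K36me3 and H4K16ac set 8 (0.210%). H3K27ac was sparse on H3K4me2 regions with H3K27me3 and on those with none of H3K27me3, H3K4me3 and H3K4me1. It overlapped 5 of 583 H3K4me2 regions with H3K27me3 and H3K4me3 (0.858%, 0.367 to 1.99) and 0 of 1749 with H3K27me3 and H3K4me1 (up to 0.219%). Among those with none of these marks it overlapped 83 of 10662 (0.778%, 0.628 to 0.964). The share was higher on regions without H3K27me3 but with H3K4me3 or H3K4me1, at 2471 of 33329 (7.41%, 7.14 to 7.70).

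The comparison with 3 other classes of H3K4me2 region shows where these differ. The 583 regions with H3K27me3 and H3K4me3, the bivalent combination, had H3K9ac in 72.4% (68.6 to 75.9), H3K79me2 in 19.6% and a median width of 2250 bp. The 1749 regions with H3K27me3 and H3K4me1 but no H3K4me3 had H3K9ac in 3.66% (2.88 to 4.65) and a median width of 1050 bp. The 10662 regions with none of the 3 marks were the narrowest, at 750 bp, yet had H3K9ac in 20.5% (19.7 to 21.3). Polycomb H3K4me2 regions thus carried H3K9ac less often than regions with none of the 3 marks. They carried it more often than regions with H3K27me3 and H3K4me1 but no H3K4me3.

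**Figure D1:**
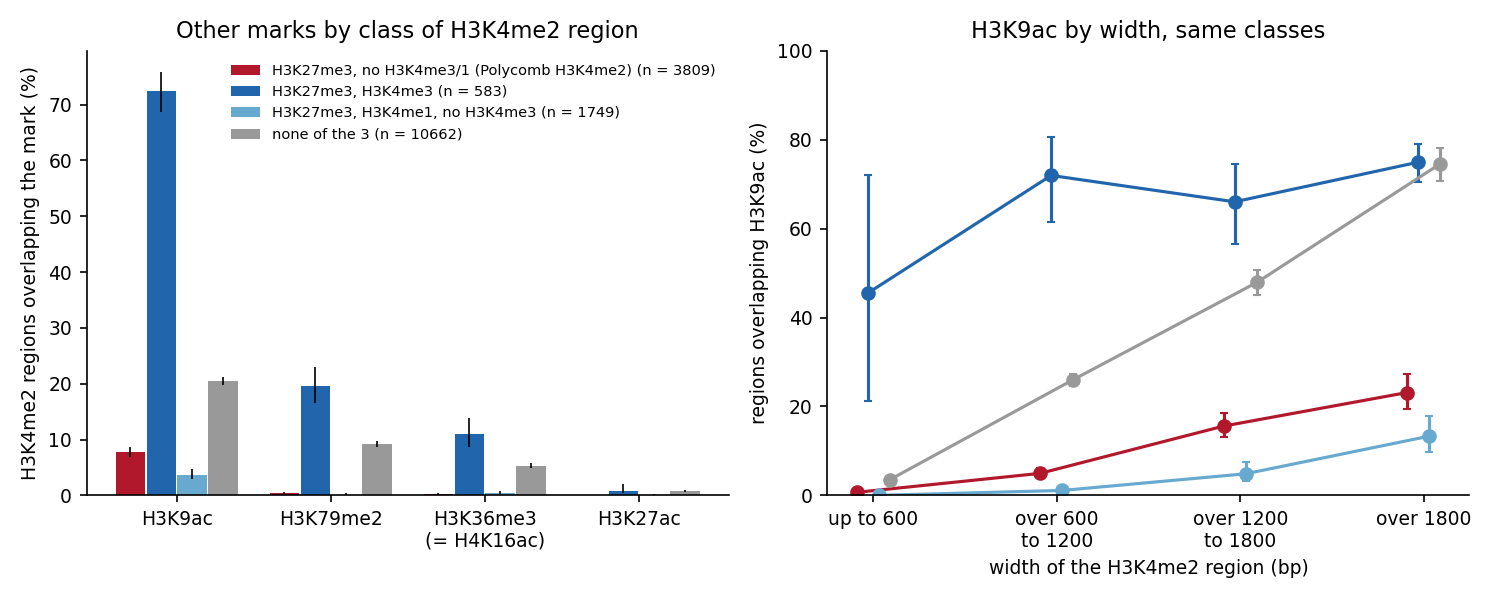
Share of H3K4me2 regions overlapping each other mark, by class (left, bars), and overlapping H3K9ac by width of the region (right, points), with Wilson 95% intervals as error bars. In each width class above 600 bp, Polycomb H3K4me2 regions lie below the regions with none of the 3 marks and below those with H3K4me3; over 1800 bp the shares are 23.1%, 74.6% and 74.9%.

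Against regions with none of the 3 marks, the order was the same among regions of like width. Up to 600 bp, H3K9ac overlapped 8 of 1192 Polycomb H3K4me2 regions (0.671%) and 3.49% of those with none of the 3 marks. Between 600 and 1200 bp the shares were 4.94% and 26.0%, and over 1800 bp they were 102 of 441 (23.1%, 19.4 to 27.3) and 396 of 531 (74.6%, 70.7 to 78.1). In both classes wider regions had H3K9ac more often, and within each width class the intervals of both did not overlap. Regions with H3K27me3 and H3K4me1 but no H3K4me3 had it in 0 of 351 up to 600 bp (up to 1.08%). That interval overlaps the one of Polycomb H3K4me2 regions (0.340 to 1.32). In each class above 600 bp Polycomb H3K4me2 regions had the higher share, against 13.3% (9.81 to 17.8) over 1800 bp. H3K9ac also went with the edge of H3K27me3. It overlapped 5.08% (4.34 to 5.93) of the enclosed regions, 15.3% (12.8 to 18.1) of those reaching past H3K27me3 on 1 side and 26.3% (19.6 to 34.4) of those with a gap in H3K27me3. Those with a gap were also wider, with a median of 1500 bp against 900 bp for the enclosed and the 1-sided regions. The part of width in this order was not tested. Regions with H3K9ac had H3K4me3 within 5 kb in 14.3% of cases, against 3.61% of regions without it; the part of nearby H3K4me3 in the H3K9ac calls was not tested.

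Gene starts held the wider regions, but most regions lay elsewhere. Within 1 kb of a listed protein-coding start lay 1128 regions, 30.9% (29.4 to 32.4) of the 3656 outside chromosome 8, for which no start was listed. Among regions with H3K27me3 and H3K4me3 the share was 73.2% (69.3 to 76.8), and among those with H3K27me3 and H3K4me1 it was 8.24% (6.99 to 9.69). Of the other Polycomb H3K4me2 regions, 310 lay within 1 kb of an end of a protein-coding gene with no listed start, 192 within 1 kb of a long non-coding RNA start, 798 in a protein-coding gene body, and 1381 (36.3%) in none of these places.

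Regions at starts differed from the rest in width and in H3K9ac. At protein-coding starts the median width was 1350 bp (order-statistic 95% interval 1200 to 1350) and H3K9ac overlapped 12.9% (11.03 to 14.9). In gene bodies the median was 750 bp and the H3K9ac share 3.88% (2.75 to 5.46), and outside all annotated places they were 750 bp and 3.62% (2.76 to 4.74). Regions at long non-coding starts came between, with 1050 bp and 10.9% (7.27 to 16.1). Wider regions had H3K9ac more often, and the part of width in the H3K9ac shares by place was not tested. Enclosure by H3K27me3 varied less, from 75% at long non-coding starts to 82.3% at ends of genes without a listed start.

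Around the start, H3K4me2 of these regions was centred just downstream and H3K27me3 ran through it. The 897 genes whose first listed start had such a region and no H3K4me3 within 1 kb were aligned in the direction of transcription. High cover by H3K4me2 and H3K27me3 near the start partly follows from this choice. The choice treats the upstream and downstream sides alike. H3K4me2 covered 80.5% of them at the start and most, 82.1%, at 200 bp downstream. At 1000 bp it covered 41.5% downstream and 20.5% upstream. H3K9ac peaked at the same place but at only 6.02% of starts. H3K27me3 covered 92.4% at the start and stayed between 84.8% and 93.9% over 5 kb on each side.

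**Figure D2:**
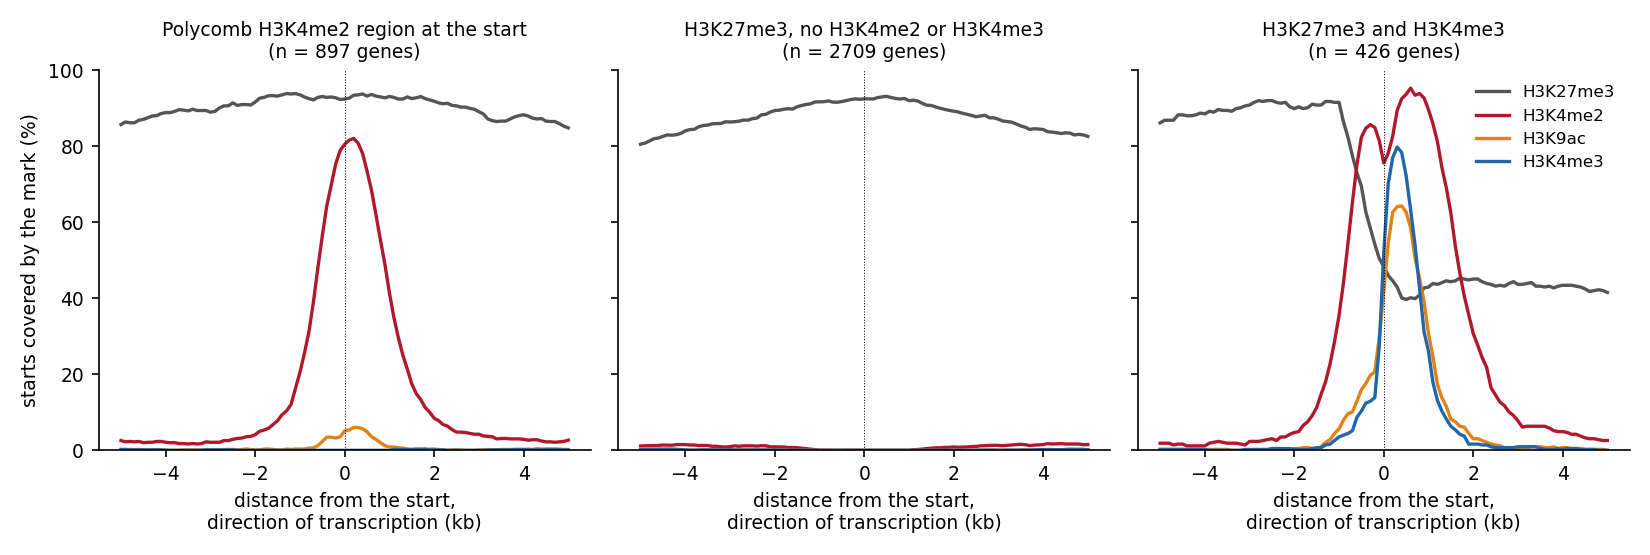
Percent of gene starts covered by each mark at each distance from the start (kb, positive in the direction of transcription), for 3 classes of start, 1 start per gene. H3K27me3 is at 84.8% or more across starts with a Polycomb H3K4me2 region, and goes from 91.5% at 1000 bp upstream to 39.7% at 500 bp downstream where H3K4me3 is present.

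Starts with both H3K27me3 and H3K4me3 (426 genes) had another layout. There H3K27me3 covered 91.5% at 1000 bp upstream, 48.4% at the start and 39.7% at 500 bp downstream, and H3K4me3 peaked at 79.8% at 300 bp downstream. H3K4me2 dipped to 75.6% at the start and peaked at 95.3% at 600 bp downstream. H3K27me3 thus lay mainly upstream of the H3K4me3 at those starts, while it spanned the H3K4me2 at starts with a Polycomb H3K4me2 region. These H3K27me3 and H3K4me3 profiles partly follow from how both classes were chosen. The 2709 starts with H3K27me3 and neither H3K4me2 nor H3K4me3 had H3K27me3 cover of 92.5% at the start.

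CpG content went with the presence of H3K4me2 among Polycomb-marked starts. A promoter was called CpG-rich when its 300 bases (250 before and 50 after the start) had an observed over expected CpG ratio of at least 0.6 and a GC content of at least 50%. This held for 1066 of the 1367 listed starts with a Polycomb H3K4me2 region (78.0%, 75.7 to 80.1), the starts of 1078 genes. It held for 916 of 3722 starts (24.6%, 23.3 to 26.0) with H3K27me3 and neither H3K4me2 nor H3K4me3, and for 60.02% of all 22131 listed starts. The median ratio was 0.80 with a region and 0.32 without. Starts with H3K4me3 and no H3K27me3 were CpG-rich in 86.4% (85.7 to 87.0) and had a median ratio of 0.86. Where H3K27me3 and H3K4me3 were both present, 472 of 529 starts were CpG-rich (89.2%, 86.3 to 91.6), with a median ratio of 0.86. Both shares are above that of starts with a Polycomb H3K4me2 region. Several starts of a gene may share a region, and with the first listed start of each gene alone the share was 80.5%.

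Seen from the promoter, 980 of the 1998 CpG-rich starts with H3K27me3 and no H3K4me3 had a Polycomb H3K4me2 region (49.0%, 46.9 to 51.2), against 295 of 3206 others (9.20%, 8.25 to 10.3). By CpG ratio the share was 2.34% (1.63 to 3.34) at up to 0.2, 22.5% (19.6 to 25.7) at 0.4 to 0.6 and 53.5% (50.2 to 56.7) at 0.8 to 1. Above 1 it was 48.4% (42.3 to 54.5), with an interval that overlaps that of the bin before. PAX7, with a ratio of 1.07, is 1 of the CpG-rich starts without a region, and COL19A1, at 0.54, has a region below the threshold. Long non-coding starts away from protein-coding starts showed the same order at lower shares: 113 of 402 CpG-rich ones (28.1%, 23.9 to 32.7) and 127 of 4141 others (3.07%, 2.58 to 3.64) had a region. Width followed CpG content little, with a median of 1500 bp at CpG-rich starts and 1350 bp at others, whose intervals overlap.

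**Figure D3:**
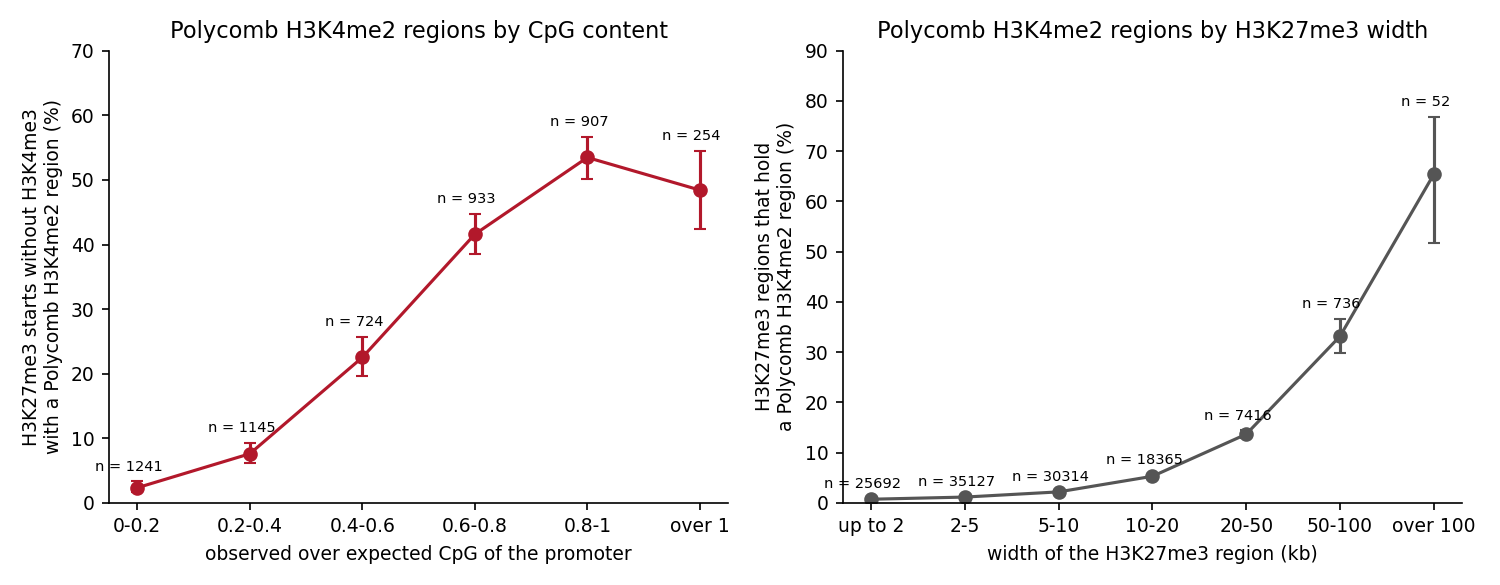
Left: percent of listed starts with H3K27me3 and no H3K4me3 that have a Polycomb H3K4me2 region within 1 kb, by observed over expected CpG of the promoter. Right: percent of H3K27me3 regions that hold such a region, by their width in kb. Error bars are Wilson 95% intervals; the left share goes from 2.34% to 53.5% before the last bin, the right from 0.716% to 65.4%.

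Short motifs were searched in the same 300 bases on both strands. GGGCGG, the letters bound by SP1-type factors, was in 82.6% (80.3 to 84.8) of CpG-rich promoters with a Polycomb H3K4me2 region, in 73.6% (70.6 to 76.3) of those with H3K27me3 and neither H3K4me2 nor H3K4me3, and in 79.5% of all CpG-rich promoters. CCGGAA, the core read by ETS factors, showed a larger gap: 14.3% (12.3 to 16.5) of CpG-rich promoters with a region held it, against 34.1% (33.1 to 35.02) of CpG-rich promoters with H3K4me3 and no H3K27me3, and 29.8% of all CpG-rich promoters. CpG-rich promoters with H3K27me3 and no H3K4me2 or H3K4me3 had it in 14.7% (12.6 to 17.2), so it did not separate these from promoters with a region. Those with H3K27me3 and H3K4me3 had it in 30.7% (26.7 to 35.02). TATAAA, the TATA box, was in 5.999% of promoters with a region, in 18.4% of Polycomb promoters without H3K4me2 and in 9.46% of all 22131 promoters. Among CpG-rich promoters alone it was in 4.88% (3.74 to 6.34) with a region, 6.77% (5.32 to 8.58) of the Polycomb ones without H3K4me2 and 3.75% (3.44 to 4.09) of all. The interval with a region overlaps both others, so among CpG-rich promoters no order of TATAAA shares is given. Among CpG-rich promoters CACGTG was in 7.41% (5.99 to 9.14) with a region, 8.84% (7.17 to 10.9) of the Polycomb ones without H3K4me2 and 10.5% of all. CCAAT was in 28.9% of CpG-rich promoters with a region and 33.1% of all CpG-rich promoters, and AGATAA in 3.47% and 3.21%. The letters CG are part of 3 of these motifs, GGGCGG, the ETS core and CACGTG.

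Among protein-coding genes, 1397 of 19970 had a Polycomb H3K4me2 region within 1 kb of a start, which is the background of 7.00%. For the 4159 genes with no listed start, both annotated ends stood in for it, so a region counted there may lie at the end of the gene and not at its start. H3K27me3 was within 1 kb of the start of 29.2% of genes, and 17.4% had H3K27me3 with neither H3K4me2 nor H3K4me3. Of the 5055 genes with H3K27me3 and no H3K4me3 there, 1255 (24.8%) had a region. H3K4me3 was also present within 1 kb at 138 (9.88%) of the 1397 genes, in a region of its own or at another start. Among 39 lists of gene families and pathways, 29 lay above the background share and 10 below. H3K27me3 is part of the rule, so lists with many genes under H3K27me3 start higher. The number of genes under H3K27me3 is therefore given beside the counts, as genes with H3K27me3 within 1 kb of a start. A share above the background is not by itself an excess among genes under H3K27me3.

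**Figure D4:**
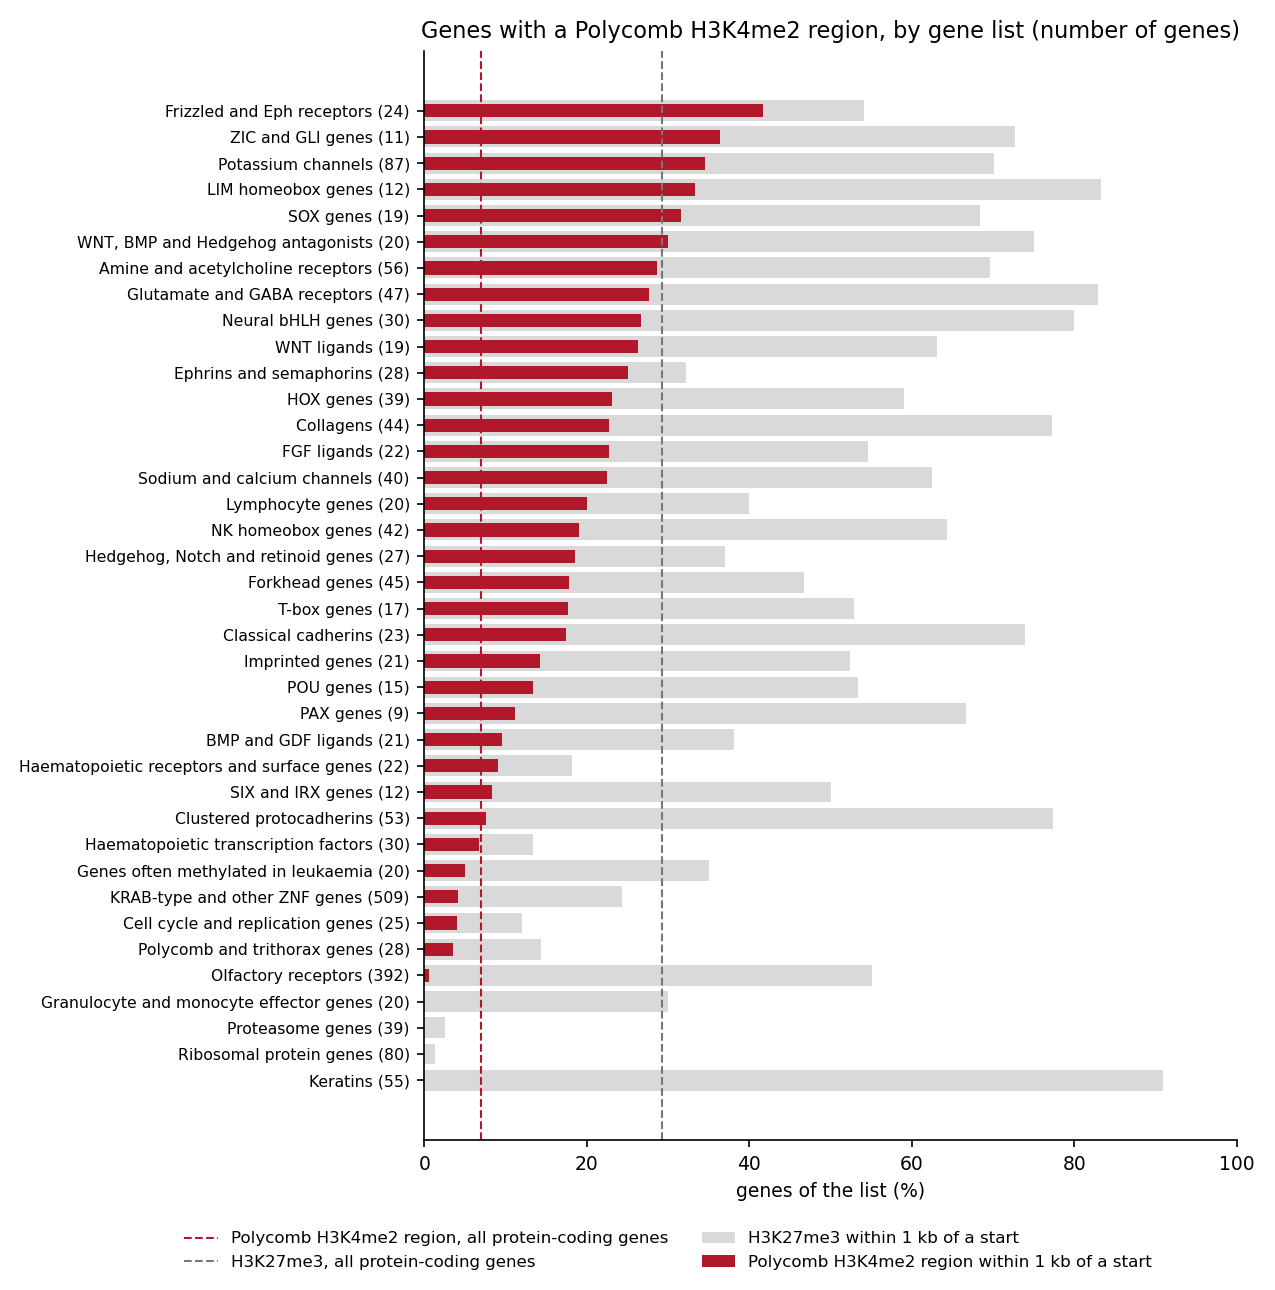
Percent of the genes of each list (8 or more genes, number in brackets) with H3K27me3 (grey) and with a Polycomb H3K4me2 region (red) within 1 kb of a start; dashed lines give both shares over all protein-coding genes. Frizzled and Eph receptors reach 41.7%, while keratins, most of which have H3K27me3, have 0%.

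Transcription factors of development came first by number. Over 12 families without the zinc-finger genes named ZNF, 56 of 257 (21.8%) had a region, with a median width of 1350 bp. Of the 23 HOX genes with H3K27me3, out of 39, 9 had a region (15 with a window of 2.5 kb). LIM homeobox genes had 4 of 12 with 10 under H3K27me3: LHX2, a factor of forebrain and hair follicle (chr9:124010851-124012950, 2100 bp), ISL1 of motor neurons (1350 bp, with H3K4me3 0.450 kb away), LMX1B (900 bp) and LHX5 (750 bp). LHX5 had no listed start and is counted by its lower annotated end. With listed starts only, the LIM homeobox count was 3. NK homeobox genes had 8 of 42 with 27 under H3K27me3, led by NKX2-2 of ventral spinal cord and pancreas with 3000 bp, of which 13.3% was under H3K27me3, and by EMX1 of cortex and NKX2-1 of lung and thyroid with 2100 bp each, both wholly covered. SOX genes had 6 of 19 with 13 under H3K27me3, among them SOX8 (2400 bp), SOX21 (1500 bp) and SOX2 (1350 bp), a factor of neural and embryonic stem cells whose region stood 721 kb from any H3K4me3.

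Forkhead genes had 8 of 45 with 21 under H3K27me3, led by FOXA1, a pioneer factor of endoderm, with 2100 bp (chr14:37594501-37596600). Neural bHLH genes had 8 of 30 (4 with listed starts only) with 24 under H3K27me3, among them BHLHE22 (2700 bp), ATOH1 of hair cells and cerebellum (1650 bp) and NHLH2 (1500 bp). ZIC and GLI genes had 4 of 11 with 8 under H3K27me3, with 3150 bp at GLIS3, 3000 bp at ZIC5 and 2850 bp at GLI2, an effector of Hedgehog signalling. The ZIC5 region carried 1200 bp of H3K9ac and touched an H3K4me3 region. POU genes had 2 of 15 with 8 under H3K27me3, POU3F2 with 3900 bp (chr6:98832601-98836500) and POU3F1 with 1500 bp. T-box genes had 3 of 17 with 9 under H3K27me3. GATA genes had 2 of 6 with 4 under H3K27me3 (1 with listed starts only), GATA3 (2100 bp), the T-helper factor, and GATA5 (600 bp).

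PAX genes stood near the background. Only PAX2 of kidney among 9 PAX genes had a region (1350 bp), though 6 had H3K27me3, 5 of them with neither H3K4me2 nor H3K4me3 (2 PAX genes had a region with a window of 2.5 kb). ZNF genes were below the background with 21 of 509 (4.13%); 124 of them had H3K27me3 and 340 H3K4me3. ZNF536, expressed in brain, had the widest of these at 3600 bp.

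Ligands, secreted or bound to the membrane, had 19 of 90 (21.1%), a share close to that of the transcription factors, and receptors, without olfactory ones, 39 of 127 (30.7%). Among WNT ligands 5 of 19 had a region with 12 under H3K27me3, with 1800 bp at WNT6, 1650 bp at WNT4 and 1200 bp at WNT7B, and among FGF ligands 5 of 22 with 12 under H3K27me3, with 2250 bp at FGF18, 1950 bp at FGF20 and 1800 bp at FGF2. Ephrins and semaphorins, which guide axons, had 7 of 28 with 9 under H3K27me3, of which 1 had neither H3K4me2 nor H3K4me3. SEMA6A had 3900 bp, EFNA5 3150 bp and SEMA5B 3000 bp. BMP and GDF ligands had 2 of 21 with 8 under H3K27me3, BMP3 (1350 bp) and BMP2 (1050 bp). Both are counted by an annotated end, and with listed starts only the BMP and GDF count was 0.

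Frizzled and Eph receptors, which bind WNT ligands and ephrins, had the highest share of any family list, 10 of 24 (41.7%) with 13 under H3K27me3. FZD8 had 4500 bp (chr10:35640151-35644650, 88.9% under H3K27me3), EPHA4 3000 bp and EPHA6 2700 bp. Amine and acetylcholine receptors had 16 of 56 with 39 under H3K27me3, led by ADRA2A, an adrenergic receptor, with 2850 bp. Glutamate and GABA receptors had 13 of 47 with 39 under H3K27me3. Among the 13 were GRID1 (3300 bp) and GABRB2 (2550 bp, 25.5% under H3K27me3), the latter without H3K27me3 within 1 kb of its start. With listed starts only, 8 of the glutamate and GABA receptors had a region. The 2400 bp region counted for GRIN1, a subunit of NMDA receptors, lay at the upper annotated end of the gene and also within 1 kb of the start of LRRC26. Among antagonists of WNT, BMP and Hedgehog signalling 6 of 20 had a region with 15 under H3K27me3, among them DKK3 (1350 bp) and BAMBI (1200 bp, touching H3K4me3). Hedgehog, Notch and retinoid genes had 5 of 27 with 10 under H3K27me3, led by CYP26B1, which degrades retinoic acid, with 2400 bp and by SHH itself with 1650 bp.

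Ion channels had 39 of 127 (30.7%). Potassium channels made up 30 of these, out of 87 with 61 under H3K27me3. KCND3 had 2850 bp (chr1:111988801-111991650, wholly under H3K27me3) and KCNS3 2850 bp, while KCNH2, the channel of cardiac repolarisation, had 2400 bp of which 20.8% was under H3K27me3. Sodium and calcium channels had 9 of 40 with 25 under H3K27me3, with the widest at the calcium channels CACNA1G (3900 bp), CACNA1C (3750 bp) and CACNA1D (3000 bp).

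Adhesion genes had 8 of 76 (10.5%) and collagens 10 of 44 (22.7%). Clustered protocadherins, which give neurons their surface identity, had 4 of 53 although 41 had H3K27me3, and the widest of the 4, at PCDHA3, had 1050 bp with 19.05% under H3K27me3 and 300 bp of H3K9ac. Those at PCDHB14, PCDHAC2 and PCDHB10 were 450, 300 and 300 bp wide and wholly covered. Classical cadherins had 4 of 23 with 17 under H3K27me3 (2 with listed starts only), led by CDH2, the neural cadherin, with 1800 bp. The collagens had 34 genes under H3K27me3, with COL14A1 (2850 bp), COL25A1 (2700 bp) and COL19A1 (2100 bp) the widest.

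Keratins and olfactory receptors showed H3K27me3 with hardly any H3K4me2. Of 55 keratin genes 50 had H3K27me3, all 50 without H3K4me2 and H3K4me3, and 0 had a region (3 with a window of 2.5 kb). Of 392 olfactory receptor genes 216 had H3K27me3 and 2 had a region, OR51D1 (600 bp) and OR1I1 (450 bp), both counted by annotated ends. Few of these genes had a CpG-rich H3K27me3 start: 0 keratins and 3 olfactory receptors. Ribosomal protein genes (80) and proteasome genes (39) also had 0, with H3K27me3 at 1 gene in each list.

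Among genes with H3K27me3 and no H3K4me3, 24.8% over all protein-coding genes had a region. By role the shares were 48.75% for channels, 48.7% for ligands, 44.0% for receptors and 36.4% for transcription factors. Collagens had 9 of 33 (27.3%) and adhesion genes 8 of 57 (14.0%). CpG content was not matched there, so the roles were also compared among genes with a CpG-rich Polycomb start and no H3K4me3. Over all protein-coding genes 836 of 1699 such genes had a region (49.2%, 46.8 to 51.6). Channels had 25 of 39 (64.1%, 48.4 to 77.3), receptors 24 of 40 (60%, 44.6 to 73.7), ligands 12 of 22 (54.5%, 34.7 to 73.1) and transcription factors 33 of 75 (44.0%, 33.3 to 55.3). Collagens had 5 of 13 (38.5%, 17.7 to 64.5) and adhesion genes 1 of 7 (14.3%, 2.57 to 51.3). All 6 intervals hold the share of all genes with such a CpG-rich start, and most are wide. A difference of these roles from that share was thus not detectable at these numbers of genes.

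Lists of blood genes lay on both sides of the background of 7.00%. Of 30 haematopoietic transcription factors, 23 had H3K4me3, 4 H3K27me3 and 2 (6.67%) a Polycomb H3K4me2 region: ERG (3450 bp, 68.1% under H3K27me3), which also had H3K4me3 within 1 kb of a start, and EBF1, the B-cell factor, with 2850 bp wholly under H3K27me3. Of 22 haematopoietic receptors and surface genes, 4 had H3K27me3 and 2 (9.09%) a region, CXCR4 and PROM1 (600 bp). PROM1 also had H3K4me3 within 1 kb of a start, and CXCR4 is not among the 4 with H3K27me3 there. CXCR4, the receptor of CXCL12, had 4350 bp (chr2:136115701-136120050) with only 1.15% under H3K27me3, so it entered by its edge. With at least 50% of a region under H3K27me3, the receptors and surface genes had 1. None of 20 granulocyte and monocyte effector genes had a region, and 6 had H3K27me3. Lymphocyte genes were above the background, with 4 of 20 (20%) and 8 under H3K27me3: LEF1 (2250 bp), GATA3, TBX21 (1350 bp) and BLK (1350 bp, at its upper annotated end). SNAP25, among the neuron markers used to check the line, also had a region.

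A further 3 sets had 1 such gene each and shares of 3.57% to 5%, under the background of 7.00%. CBX7, a PRC1 subunit, was the only 1 of 28 Polycomb and trithorax genes with a region (1050 bp), with 4 under H3K27me3. TP73 was the only 1 of 20 genes often methylated in leukaemia (750 bp), with 7 under H3K27me3. CCND1, cyclin D1, was the only 1 of 25 cell cycle and replication genes (1500 bp, with 300 bp of H3K9ac), with 3 under H3K27me3, and is counted by an annotated end. Imprinted genes were above the background with 3 of 21 (14.3%): DIRAS3 (1050 bp), DLK1 (900 bp) and GNAS (600 bp). With listed starts only, 2 had a region. Of the 21, 11 were under H3K27me3, against 29.2% of all genes, so no excess beyond H3K27me3 is read from these 3 genes.

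The 10 widest regions ran from 4050 to 5850 bp. The widest covered the start of EBF3 with 5850 bp (chr10:129959851-129965700). It was wholly under H3K27me3 and carried 750 bp of H3K9ac and 2550 bp of H3K79me2, a mark seen on only 16 of the 3809 regions. MAMLD1, a Notch-related coactivator, had 5100 bp on X (chrX:150362101-150367200, 86.3% under H3K27me3). EBF2, the relative of EBF3 in fat and neurons, had 4650 bp wholly covered. ADAMTS1, a matrix protease, also had 4650 bp, but only 24.7% was covered and 1650 bp had H3K9ac.

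FZD8 (4500 bp) and CXCR4 (4350 bp) came next, as given above. NPTX1, a synaptic pentraxin, had 4200 bp with 70.2% under H3K27me3. HEY2, a Notch target in heart and vessels, had 4200 bp (chr6:125746501-125750700), and HRK, a pro-apoptotic BCL2-family gene, had 4050 bp (chr12:116878351-116882400), both wholly covered. The last was a 4050 bp region inside CYP1B1 (chr2:38070601-38074650), 53.1% under H3K27me3, with 1050 bp of H3K79me2 and H3K4me3 2.55 kb away. Coverage by H3K27me3 thus ran from 1.15% to 100% within the widest 10, and none overlapped H3K27ac.

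Wide H3K27me3 regions held most of the multiple occurrences. Of 117702 H3K27me3 regions, 3510 (2.98%) held at least 1 Polycomb H3K4me2 region. These had a median width of 14500 bp (14000 to 15500), against 5000 bp for the 114192 without. With the H3K27me3 regions joined over gaps of up to 3 kb the medians were 80000 bp with and 14500 bp without. The share holding at least 1 went from 0.716% at up to 2 kb to 13.7% (12.9 to 14.5) at 20 to 50 kb and 65.4% (51.8 to 76.8) above 100 kb, where 34 of 52 did. A wider region offers more bases, so counts were also taken per Mb: 5.08 in H3K27me3 regions up to 2 kb, 3.15 at 5 to 10 kb, 5.51 at 20 to 50 kb and 8.16 above 100 kb. As counted, the density varied far less than the share and was lowest at middle widths. A Polycomb H3K4me2 region counted in full wherever it shared 1 bp with H3K27me3, which adds relatively more to narrow H3K27me3 regions. How far this raised the density at up to 2 kb was not tested, so no dip at middle widths is read from it.

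Several regions stood together at a few loci. Another lay less than 10 kb away from 792 of the 3809 regions (20.8%), while the median distance to the next was 93.5 kb. H3K27me3 regions with 2 or more numbered 336, and those with 5 or more 6. The leading 5 by number were at HOXD (9 and 5 regions on neighbouring H3K27me3 stretches), at LHX2, at EBF3 and on chromosome 7.

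The LHX2 locus (chr9:123993501-124068500) held 6 regions, all wholly under H3K27me3 and without H3K9ac, from 750 to 2100 bp. The widest was at the LHX2 start, 3 others at long non-coding starts. The EBF3 locus (chr10:129951501-129998000) held 6 regions that added up to 16050 bp, of which 2 had H3K9ac. The chromosome 7 locus (chr7:25825001-25887000) held 5 regions of 600 to 2850 bp with no protein-coding start within 1 kb of any.

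The HOX clusters, whose genes pattern the body axis, differed in how many such regions they held. HOXD (chr2:176087487-176190907) was 98.5% under H3K27me3, and all 15 of its H3K4me2 regions were Polycomb H3K4me2 regions. Their widths ran from 300 to 2850 bp. The widest lay within 1 kb of the HOXD12 start (chr2:176096251-176099100, 64.9% under H3K27me3, 600 bp of H3K9ac), the next at HOXD13 with 2400 bp and 750 bp of H3K9ac. The other 13 had no H3K9ac and were wholly covered, at HOXD11 (1050 bp), HOXD9 (600 bp), HOXD8 (3 regions), HOXD3 (450 bp), HOXD1 (1050 bp) and at 6 places with no protein-coding start within 1 kb, of which 3 were in gene bodies and 2 at long non-coding starts. H3K4me3 and H3K4me1 were absent from the whole cluster in these calls.

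**Figure D5:**
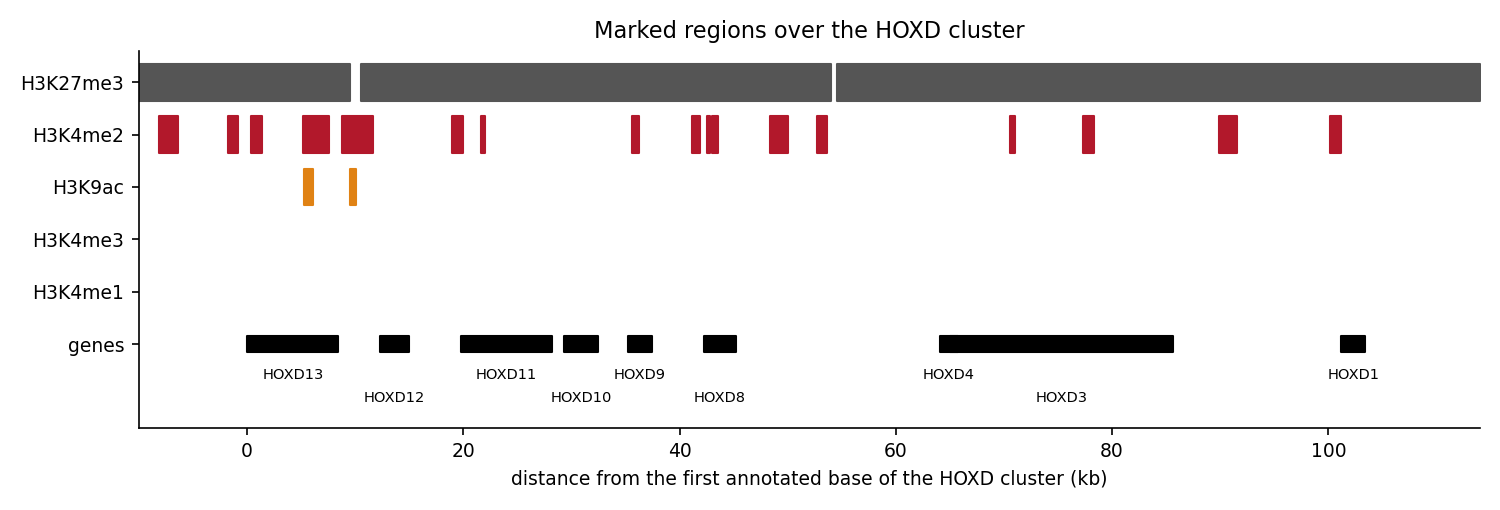
Called regions of 5 marks over the HOXD cluster, in kb from its first annotated base, with the gene spans below. H3K27me3 covers 98.5% of the cluster, 15 separate H3K4me2 regions lie along it, H3K9ac overlaps 2 of these, and no H3K4me3 or H3K4me1 region is present.

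HOXC (chr12:53938831-54056030) was 78.7% under H3K27me3 and held 20 H3K4me2 regions, 9 of them Polycomb H3K4me2 regions and 11 with H3K4me1. The widest of the 9, with 2400 bp, was at HOXC11. HOXB (chr17:48528526-48728750) was 65.8% covered, with 5 of 12 H3K4me2 regions of this kind, the widest at HOXB9 (2250 bp). HOXA (chr7:27092993-27200091) had 0% H3K27me3 and 11 H3K4me2 regions, 8 with H3K4me3 and none of this kind.

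Chromosomes differed in density. Per Mb of H3K27me3 there were 4.17 Polycomb H3K4me2 regions over all 23 chromosomes, with a median of 4.06. Chromosome 19, rich in genes, had the highest density at 10.3 (171 regions), then chromosome 17 at 6.22. X had the lowest at 2.87 (117 regions) and chromosome 8 the next at 3.03 (153 regions). KBM-7 carries most chromosomes in 1 copy but keeps a further copy of chromosome 8 and of part of chromosome 15. Outside chromosome 8 and outside 61 to 90 Mb on chromosome 15 there were 3606 regions, so most were called on chromosomes that the line is known to carry in 1 copy.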

How the data were processed

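The authors deposited 1 list of called intervals (chromosome, start, end, mark name) with no count, score or signal; cutadapt, Bowtie2, MACS and GRCh38 are named in the submitters' processing notes, and the sources used here give no thresholds or versions. Starts counted from 0 or 1 were brought to the same convention by their remainder on a 50 bp grid. H3K36me3 and H4K16ac held 45695 identical intervals and were used as 1 set; 1 further mark label matched no sample and was not used. The analysis covered chromosomes 1 to 22 and X, without the inputs.

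Intervals of a mark that overlapped or touched were joined with numpy 2.4.6 and pandas 2.3.3. Starts, promoter windows and microRNAs came from RefSeq tables (GRCh38.p14): 22131 starts covered 15811 of 19970 protein-coding genes, and for the other 4159, which include all of chromosome 8, windows of 1 kb around both annotated ends were used, where the plan had 1 start per gene. With 1 library per mark, no test was possible and no p-value was computed; depth is unknown. Overlap functions were tested on simulated data.

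The regions, gene lists (39, with 236 entries in the 10 named sets, of which 233 matched) and alternatives were chosen with earlier results of these data known. Genes named were, per list, up to 3 with the widest region at a start and all on the smaller side where it had 4 or fewer of 8 or more genes; the 10 widest regions; the 5 H3K27me3 regions with most regions; and the HOX clusters. The text names a selection, and some genes are not reported here. KIT, SNAP25, LRRC26, the microRNAs and the KRT5 and PAX7 promoters were chosen after their values were seen. The settings on listed starts were added after seeing the data.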

Additional observations from a re-analysis of the deposited data

How the results depend on the processing

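The 7 main values were recomputed under up to 11 settings. None of the counts moved by over 1.5 times except with H3K4me2 regions at or above the median width only: 1409 Polycomb H3K4me2 regions of median width 1650 bp, 16.4% with H3K9ac, 51.4% within 1 kb of a listed start, 889 genes, and holding H3K27me3 regions of 17000 bp. The H3K9ac share was 6.63% where at least 50% of a region had to be under H3K27me3. The share within the window of a listed start was 29.3% at 500 bp and 33.6% at 2.5 kb. The CpG-rich share was 74.0% at 2.5 kb, 58.0% at a ratio of 0.75 and 80.5% with the first listed start of each gene. The share of other Polycomb promoters given in the report, 24.6%, was not recomputed at these settings. The median width of H3K27me3 regions holding a region was 16000 bp with 50% cover, 1000 bp for intervals as deposited and 80000 bp with gaps of up to 3 kb bridged, so it follows the joining. Leaving out chromosome 8 and 61 to 90 Mb of chromosome 15, or regions with H3K4me3 or H3K4me1 within 1 kb, moved no value beyond its interval or 1.5 times. Of the 39 lists, 7 moved by over 1.5 times with listed starts only: GATA genes to 1, neural bHLH genes to 4, BMP and GDF ligands to 0, glutamate and GABA receptors to 8, classical cadherins to 2, and olfactory receptors and cell cycle genes to 0. At 2.5 kb 3 lists did, HOX genes to 15, PAX genes to 2 and keratins to 3, and at 50% cover 1, haematopoietic receptors and surface genes, to 1. No paired analysis was possible because each mark has 1 library. Unknown depth and the 150 bp and 500 bp calling grids limit what a missing overlap shows.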
